A study of Homo sapiens with 6 samples.

Results

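The pentose phosphate pathway and the synthesis of phosphoribosyl pyrophosphate (PRPP) were followed through the transcripts of 9 genes: PGLS, PGD, RPIA, RPE, TKT, TALDO1, PRPS1, PRPS2 and NADK. They are the rows of the deposited gene table whose symbol equals a listed name, 9 of 48114 rows. All 9 passed the filter on low values, which asked for 10 or more normalized counts in 3 or more libraries, as did 23923 rows in all. The cells were TC-71, an established human Ewing sarcoma line labelled wild type. For 16 h they received BEZ235, which inhibits the kinases PI3K and mTOR, or only the solvent, dimethyl sulfoxide (DMSO), as the control. Each group held 3 libraries, labelled biological replicates. No source used here gives the dose, and the results describe 1 cell line at 1 time.

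The pathway branches off glycolysis at glucose phosphate. Its oxidative branch reduces NADP+ to NADPH and ends in ribulose phosphate. Isomerization gives ribose phosphate, which PRPP synthetases activate for the synthesis of purine, pyrimidine and nicotinamide nucleotides. The non-oxidative branch shuttles sugar phosphates back and forth between ribose phosphate and glycolysis. In proliferating tumour cells both products, NADPH and ribose phosphate, are drawn on for biosynthesis. mTOR signalling is known to promote transcription of genes of this pathway and of nucleotide synthesis.

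The 9 genes moved both ways with BEZ235. PGLS, PGD and TKT rose by 1.56-fold to 1.73-fold. NADK and RPIA fell by 1.93-fold and 1.80-fold, and PRPS1, PRPS2, TALDO1 and RPE fell by less. All 9 passed the test (limma adjusted p from 5.24e-08 to 0.00927), against 66.3% of all rows tested, 33.1% higher and 33.2% lower. The DMSO and BEZ235 libraries did not overlap for 9 of 9 genes, against 70.9% of all rows. In this fit none of the 9 reached a 2-fold change. Of all rows, 26.3% both passed the test and changed by at least that much. With total-count scaling the log2 change of NADK was -1.05, just past 2-fold. The median log2 change of the 9 was -0.21, and -0.00 over all rows tested. Their median size of change without regard to direction was 0.64 on the log2 scale, against 0.60 over all rows.

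**Figure D1:**
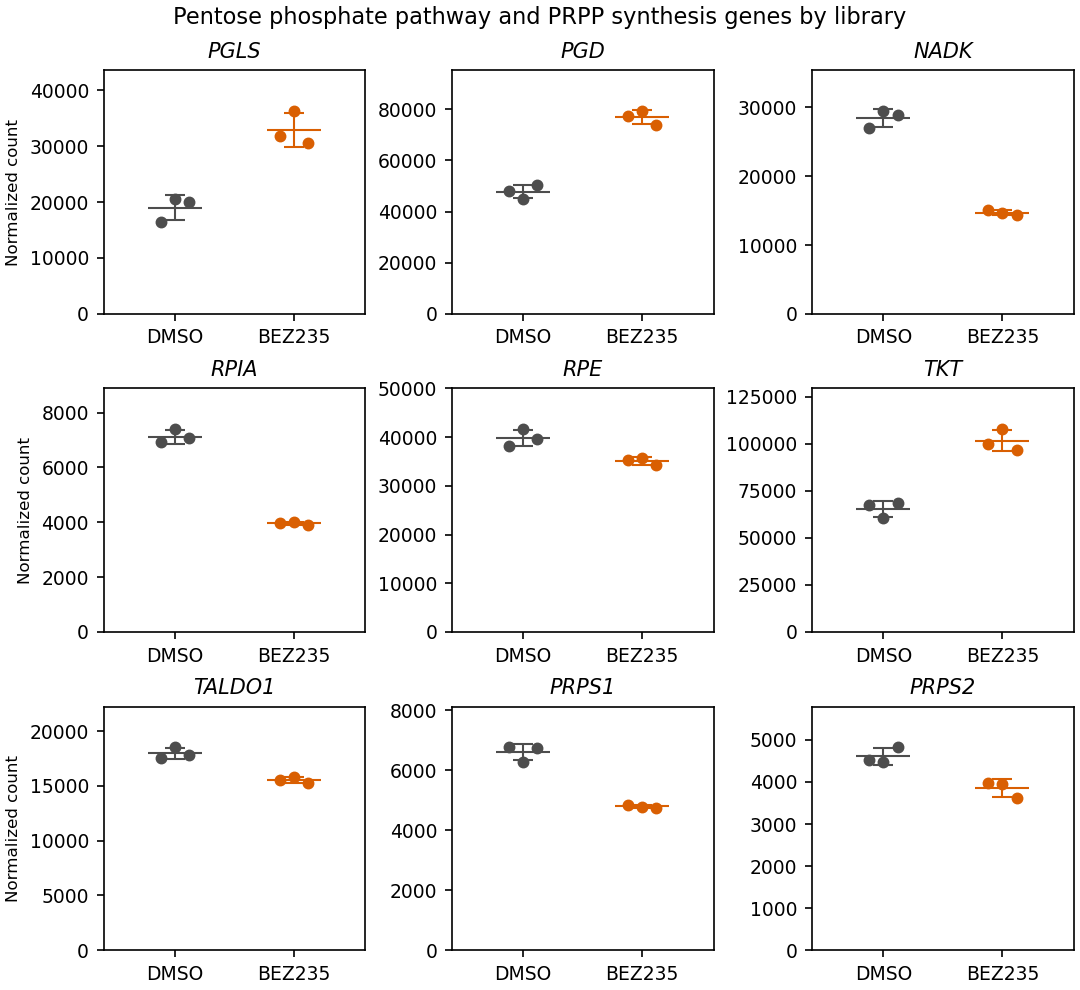
Normalized counts (vertical axes from 0) of the 9 genes in each library, with DMSO in grey and BEZ235 in orange; points are libraries, and horizontal bars with whiskers are the mean and SD of 3. In each panel the 3 BEZ235 points lie all above (PGLS, PGD, TKT) or all below (the other genes) the 3 DMSO points.

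**Figure D2:**
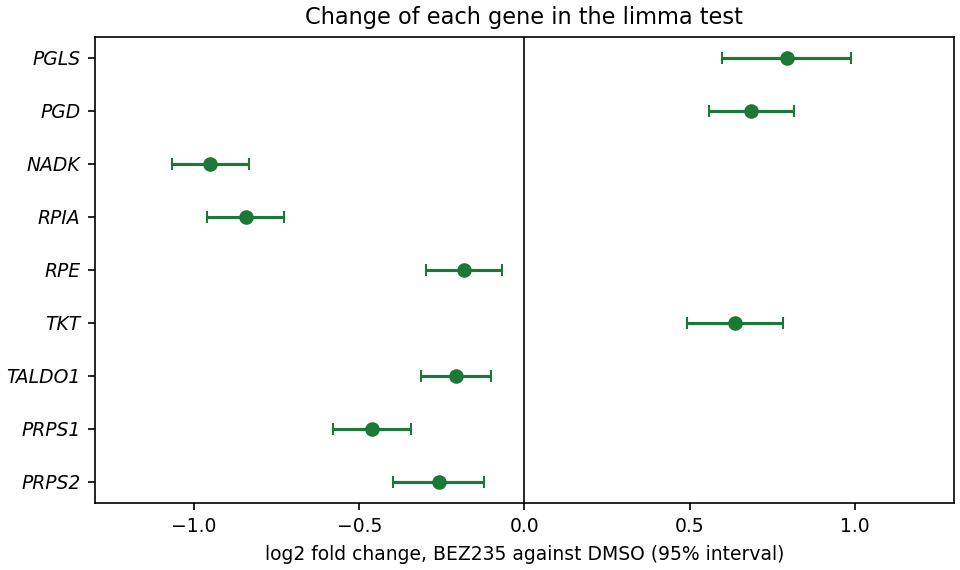
Log2 fold changes of the 9 genes, BEZ235 against DMSO, as points with 95% intervals from the limma fit. The 3 genes to the right of 0 lie between 0.64 and 0.79, and the 6 to the left between -0.95 and -0.18.

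Since the genes fell into a group that rose and a group that fell, the sequences before their start sites were set side by side. RefSeq promoter windows (GRCh38.p14), from 250 bases before to 50 after a start, were matched for 9 of 9 genes, with 11 windows because NADK has 3 starts. A set of 5 motifs was searched on both strands: the E-box CACGTG, the ATF4-type element TGATGNAAN, the cyclic AMP response element TGACGTCA, the AP-1 element TGACTCA and the E2F-type element TTTCGCGC. The E-box, bound by MYC and related factors, was present in 1 of the 11 windows, a window of NADK, against 7.26% of all 35116 windows. The other 4 motifs had no match in any of the 11 windows, against 3.61% (TGATGNAAN), 1.85% (TGACGTCA), 4.95% (TGACTCA) and 0.515% (TTTCGCGC) of all windows. GGGCGG and CCAAT, general promoter elements added after the sequences were seen, were matched in 10 and 7 of the 11 windows, against 45.0% and 34.6% of all windows. The median GC content was 65.3% over the 11 windows and 58.7% over all windows. The last 120 bases before the start are shown for 2 genes that rose and the 2 that fell most, 5′ to 3′ on the gene's strand, with matches to the E-box, to GGGCGG or to the CCAAT element on either strand in capitals.
PGD, chr1:10398944-10399063, plus strand: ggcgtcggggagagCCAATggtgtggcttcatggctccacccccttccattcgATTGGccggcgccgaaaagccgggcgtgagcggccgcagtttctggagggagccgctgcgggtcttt
TKT, chr3:53256023-53256142, minus strand: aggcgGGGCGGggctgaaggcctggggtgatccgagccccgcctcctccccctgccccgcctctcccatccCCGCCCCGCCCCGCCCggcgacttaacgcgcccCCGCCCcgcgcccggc
RPIA, chr2:88691553-88691672, plus strand: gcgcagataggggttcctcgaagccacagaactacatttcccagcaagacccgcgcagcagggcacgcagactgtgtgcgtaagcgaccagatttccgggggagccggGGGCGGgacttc
NADK, the window with the E-box, chr1:1778817-1778936, minus strand: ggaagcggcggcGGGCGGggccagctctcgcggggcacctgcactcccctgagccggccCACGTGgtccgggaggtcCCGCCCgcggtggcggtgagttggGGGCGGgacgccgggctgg
The TKT stretch held 5 matches to GGGCGG and no CCAAT. In 2 pairs of neighbouring matches 1 base was shared. The PGD stretch held 2 matches to CCAAT, in opposite orientations. The RPIA stretch had a single GGGCGG, which began 12 bases before the start. In NADK the E-box began 61 bases before the start, with 3 matches to GGGCGG in the same stretch. PGLS, which rose most, is not shown: its last 120 bases before the start held no match to these elements. The only GGGCGG in the PGLS window began 13 bases after the start.

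In the oxidative branch, PGLS and PGD rose. PGLS, which encodes the lactonase that opens the phosphogluconolactone ring (hg38 chromosome 19, 17511649 to 17521288), had normalized counts of 16528, 20543 and 19995 in DMSO and 31862, 36344 and 30547 in BEZ235. Every BEZ235 library was above every DMSO library, and relative to their mean the DMSO libraries spread more for PGLS than for any other of the 9 genes. The log2 change of PGLS was 0.79, with an SE of 0.089 and a limma adjusted p of 1.32e-05, the largest rise among the 9. The row of PGLS overlaps that of its divergent transcript PGLS-DT, which had a log2 change of 0.48 (limma adjusted p = 0.00025) at a much lower count, 1882 in DMSO and 2618 in BEZ235. PGD, the NADPH-producing phosphogluconate dehydrogenase (chromosome 1, 10399034 to 10420511), had 47917, 45080 and 50442 normalized counts in DMSO and 77395, 79421 and 73896 in BEZ235. The groups were well apart, and the log2 change of PGD was 0.69, with an SE of 0.058 and a limma adjusted p of 1.46e-06.

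NADK, the cytosolic NAD kinase that makes the NADP+ on which the oxidative branch runs, fell most of the 9. Its normalized counts were 26944, 29504 and 28830 in DMSO and 15072, 14641 and 14384 in BEZ235. The BEZ235 libraries lay close together at about the same level, 1.93-fold below DMSO. The log2 change of NADK was -0.95, with an SE of 0.052 and a limma adjusted p of 5.24e-08. The row of NADK (chromosome 1, 1751232 to 1780069) lies within the row of GNB1, a G protein subunit gene, which itself had a log2 change of -0.52 (limma adjusted p = 3.58e-05), so reads of these genes could be shared. NADK2, the mitochondrial NAD kinase, had 4093 ± 85.2 normalized counts in DMSO and 4080 ± 295 in BEZ235 (SD, n = 3) and did not pass the test (limma adjusted p = 0.931). H6PD, whose product carries out the first oxidative steps inside the endoplasmic reticulum, had 9060 ± 428 and 8308 ± 275, with a limma adjusted p of 0.067. The DMSO and BEZ235 libraries of H6PD did not overlap, and its adjusted p was 0.0145 with total-count scaling and 0.0493 without DMSO replicate 1.

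At the branch point, where ribulose phosphate goes either to ribose phosphate or to xylulose phosphate, both enzymes fell but by different amounts. RPIA, the isomerase that makes ribose phosphate (chromosome 2, 88691673 to 88750935), had 6912, 7403 and 7058 normalized counts in DMSO and 3969, 4013 and 3918 in BEZ235. The BEZ235 values of RPIA differed by less than 100 counts among themselves and lay well below the lowest DMSO library. Its log2 change was -0.84, with an SE of 0.053 and a limma adjusted p of 1.39e-07, a 1.80-fold fall. RPE, the epimerase that makes xylulose phosphate (chromosome 2, 210002621 to 210022260), had 38285, 41679 and 39634 in DMSO and 35398, 35739 and 34228 in BEZ235. Here the gap between groups was narrow, and the log2 change was -0.18, with an SE of 0.052 and a limma adjusted p of 0.00927. It was -0.11 with quantile normalization and -0.28 with total-count scaling, past the threshold in both. RPE has 6 named pseudogenes in GENCODE v29 and a copy without introns, RPEL1, among which reads could be split. Its row partly overlaps KANSL1L. Reads could likewise be split for PGD and RPIA, with 1 named pseudogene each, and for PRPS1, with 2. RPEL1 had 699 ± 38.2 normalized counts in DMSO and 691 ± 114 in BEZ235 and did not pass the test (limma adjusted p = 0.861).

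In the non-oxidative branch, the 2 enzymes that exchange carbon units moved in opposite directions. TKT, the thiamine-dependent transketolase (chromosome 3, 53224712 to 53256031), had 67158, 60388 and 68277 normalized counts in DMSO and 99902, 107742 and 96759 in BEZ235. All BEZ235 libraries were above all DMSO libraries, by 1.56-fold on average. The log2 change of TKT was 0.64, with an SE of 0.066 and a limma adjusted p of 6.96e-06. TALDO1, transaldolase (chromosome 11, 747427 to 765012), had 17544, 18541 and 17807 in DMSO and 15540, 15821 and 15282 in BEZ235. The change of TALDO1 was small but larger than the spread of either group, with a log2 change of -0.21, with an SE of 0.048 and a limma adjusted p of 0.00276. The transketolase-like genes were near the limit of detection: TKTL1 had 46 reads over the DMSO and 40 over the BEZ235 libraries, and TKTL2 had 9 and 33. Of the 46 reads of TKTL1 in DMSO nearly all came from DMSO replicate 1, and TKTL1 did not pass the test (limma adjusted p = 0.917).

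Both PRPP synthetase genes, which lie on the X chromosome, fell. PRPS1 (107628507 to 107651027) had normalized counts of 6762, 6284 and 6740 in DMSO and 4840, 4776 and 4742 in BEZ235. The BEZ235 libraries agree within about 100 counts and are all below DMSO. The log2 change of PRPS1 was -0.46, with an SE of 0.054 and a limma adjusted p of 1.8e-05. PRPS2 (12791374 to 12824224), the isoform that is less sensitive to inhibition by nucleotides, had 4521, 4472 and 4828 in DMSO and 3985, 3961 and 3609 in BEZ235. Its fall was smaller, with a log2 change of -0.26, with an SE of 0.062 and a limma adjusted p of 0.00357. The testis gene PRPS1L1 had 6 reads over the DMSO and 21 over the BEZ235 libraries and did not pass the filter. Of the associated proteins that bind the synthetases, PRPSAP1 fell from 8598 ± 545 to 6380 ± 244 normalized counts, a log2 change of -0.43, with an SE of 0.061 and a limma adjusted p of 8.33e-05. PRPSAP2 had 4208 ± 417 in DMSO and 4312 ± 44.4 in BEZ235 and did not pass the test (limma adjusted p = 0.643).

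Ratios of 2 genes within a library do not depend on how libraries were scaled to each other, so 4 pairs were compared in this way. With 3 libraries against 3, an exact two-sided permutation test cannot give a p below 0.1, which is 0.133 after Benjamini-Hochberg adjustment over the 4 pairs when 3 of them reach it. The ratio of TKT to TALDO1 was 3.83, 3.26 and 3.83 in DMSO and 6.43, 6.81 and 6.33 in BEZ235. It was higher in 3 of 3 BEZ235 libraries, by 0.85 on the log2 scale (SE 0.084, exact p = 0.1). The ratio of RPIA to RPE was 0.181, 0.178 and 0.178 in DMSO and 0.112, 0.112 and 0.114 in BEZ235. The libraries of a group hardly differed in it, and the log2 difference was -0.66 (SE 0.012, exact p = 0.1). The ratio of PRPS2 to PRPS1 was 0.669, 0.712 and 0.716 in DMSO and 0.823, 0.829 and 0.761 in BEZ235, higher by 0.20 (SE 0.051, exact p = 0.1) with no overlap. For PGD over PGLS the groups overlapped, and the log2 difference was -0.11 (SE 0.13, exact p = 0.4).

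**Figure D3:**
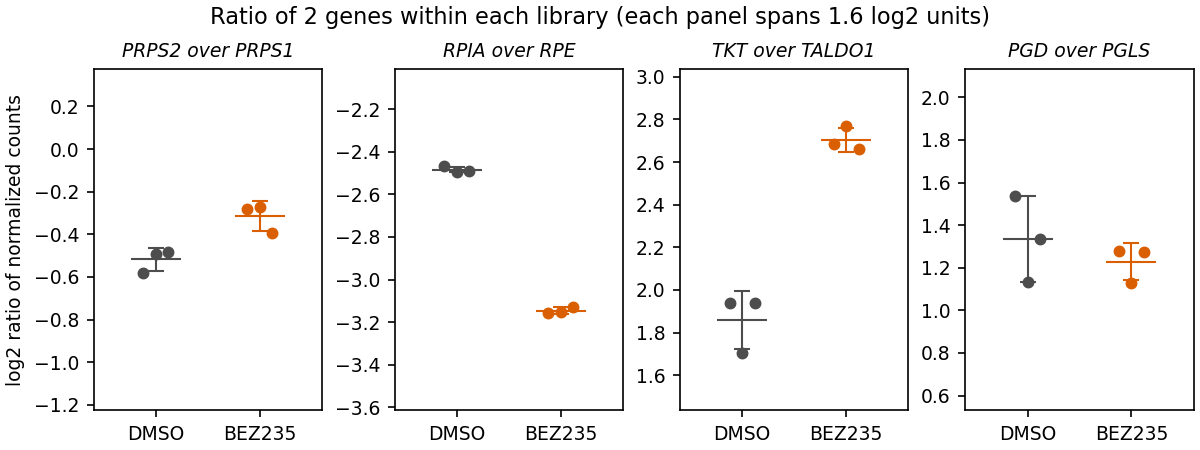
Log2 ratio of normalized counts of 2 genes in each library (vertical axes, each spanning the same range), with DMSO in grey and BEZ235 in orange; points are libraries, and bars with whiskers are the mean and SD of 3. The groups are apart for the first 3 pairs and overlap for PGD over PGLS.

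Levels of different genes were compared as normalized counts per kilobase of merged exons (GENCODE v29 basic transcripts). In DMSO the order from highest to lowest level was PGD, TKT, PGLS, TALDO1, RPE, NADK, RPIA, PRPS1 and PRPS2, and it was the same in BEZ235. PGD stood at 25365 ± 1423 per kilobase in DMSO and 40798 ± 1483 in BEZ235 (SD, n = 3). PRPS2 stood at 1679 ± 70.4 and 1404 ± 76.8. Neighbours in this order differed beyond the range of their libraries, except TKT and PGLS, whose ranges overlapped in both groups. The 3 genes that rose were the 3 with the highest levels per kilobase in DMSO. By normalized count without regard to length, TKT (65274) lay above PGD (47813) in DMSO. PGLS (19022) and TALDO1 (17964) lay below RPE (39866) and NADK (28426) in DMSO. These places thus depend on the exon lengths used. Those were 1028 bases for PGLS, 1346 for TALDO1, 1885 for PGD, 3034 for TKT, 3504 for RPE and 3880 for NADK. RPIA went from 3855 ± 136 to 2146 ± 25.8, which came close to PRPS1: the lowest BEZ235 library had 2120 per kilobase for RPIA, and the highest had 1949 for PRPS1. NADK went from 7326 ± 342 to 3788 ± 89.6, and its distance to RPE on the log scale widened.

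**Figure D4:**
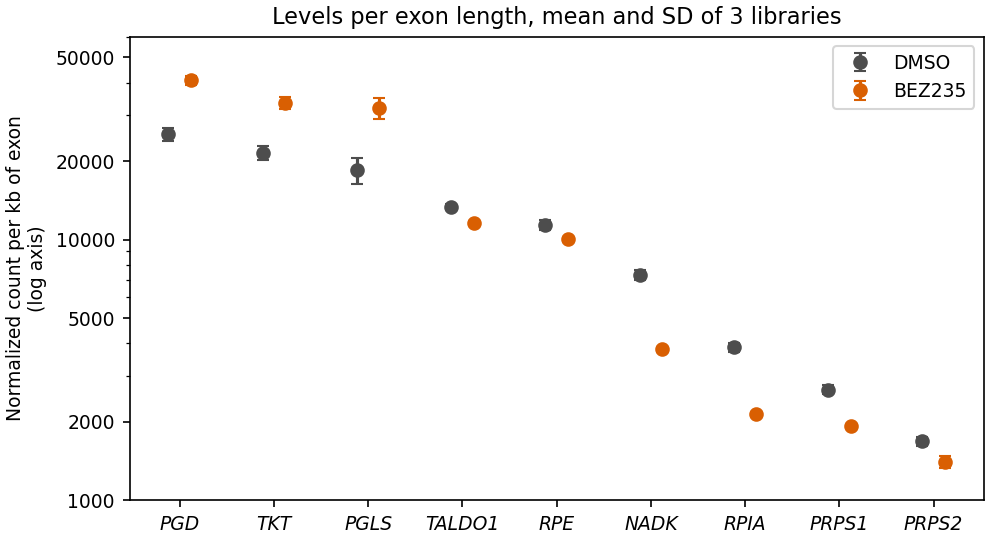
Normalized count per kilobase of merged exons (log axis) for the 9 genes, ordered by their DMSO level; points and whiskers are the mean and SD of 3 libraries, with DMSO in grey and BEZ235 in orange. The order is the same in both groups, and the 3 leftmost genes are the ones that rose.

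Genes next to the pathway were taken from fixed lists. Of 15 neighbours, which feed sugars into it or drain it, bind its enzymes or are paralogs of them, 13 were tested. Of these 4 rose and 3 fell, against 33.1% and 33.2% of all rows tested, and the median log2 change was 0.04. The row that carries SHPK, the sedoheptulose kinase, together with TRPV1 rose from 171 ± 10.4 to 907 ± 71.2 normalized counts. As these genes share the row, the change cannot be assigned to SHPK. PGM2, which acts on ribose and deoxyribose phosphate, rose from 3523 ± 171 to 5668 ± 224, a log2 change of 0.69, with an SE of 0.060 and a limma adjusted p of 1.84e-06. The ribokinase gene RBKS, whose row overlaps BABAM2, rose from 205 ± 65.5 to 494 ± 47.2. PGM1, which links glycogen and glucose phosphate, fell from 7088 ± 154 to 3784 ± 291. DERA, the deoxyribose phosphate aldolase, fell from 5362 ± 276 to 3353 ± 115, a log2 change of -0.68, with an SE of 0.060 and a limma adjusted p of 2.18e-06.

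Enzymes that use PRPP were split, with 2 of 7 higher and 4 lower, against 33.1% and 33.2% of all rows tested. Their median log2 change was -0.14. NAMPT, the first enzyme of NAD salvage from nicotinamide, fell from 19442 ± 132 to 9713 ± 598 normalized counts, with a limma adjusted p of 5.52e-08. HPRT1, which salvages hypoxanthine and guanine, fell from 7670 ± 95.6 to 4558 ± 158. PPAT, which commits PRPP to purine synthesis, fell from 7712 ± 130 to 6479 ± 357. QPRT, which uses PRPP to make NAD from quinolinate, rose from 12491 ± 754 to 26774 ± 1147, a log2 change of 1.10, with an SE of 0.058 and a limma adjusted p of 4.03e-08. UMPS of pyrimidine synthesis had a log2 change of 0.30, with an SE of 0.088 and a limma adjusted p of 0.0106, which was 0.21 with an adjusted p of 0.108 under total-count scaling and had an adjusted p of 0.0657 without the trend.

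Among 10 other genes for NADPH-producing enzymes, 7 fell and 1 rose, against 33.2% and 33.1% of all rows tested. The median log2 change was -0.65. MTHFD2, the mitochondrial folate dehydrogenase, which can use NADP+ as well as NAD+, fell from 78730 ± 2638 to 12271 ± 644 normalized counts. IDH1, the cytosolic isocitrate dehydrogenase, fell from 38009 ± 755 to 9402 ± 216, a log2 change of -2.02, with an SE of 0.047 and a limma adjusted p of 1.88e-10. ALDH1L2, a mitochondrial folate enzyme, fell from 19707 ± 185 to 4691 ± 142. The fall of these 3 genes exceeded that of every gene among the 9, while PGD of the oxidative branch rose. MTHFD2 and ALDH1L2 overlap other tested rows. The gene called higher was ME3, with overlapping groups at 16.2 ± 14.2 and 37.2 ± 7.99 and a limma adjusted p of 0.048. It ran from 0.051 with a pseudocount of 0.5 to 0.146 without BEZ235 replicate 2 among alternatives that ended the call.

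Of 14 genes for enzymes that consume NADPH, 9 fell and 2 rose, against 33.2% and 33.1% of all rows tested. The median log2 change was -0.46. TXNRD1, thioredoxin reductase, fell from 92030 ± 10511 to 26732 ± 1259 normalized counts, and the biliverdin reductase BLVRB from 28108 ± 2831 to 9529 ± 643. RRM2, the small subunit of ribonucleotide reductase, fell from 12960 ± 673 to 7527 ± 310, a log2 change of -0.78, with an SE of 0.057 and a limma adjusted p of 4.57e-07. FASN, fatty acid synthase, rose from 29734 ± 2508 to 45929 ± 2105, and the steroid reductase SRD5A1 from 7415 ± 751 to 9790 ± 261. TXNRD1, BLVRB and FASN overlap other tested rows.

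Of 15 genes of upper glycolysis, which share intermediates with the pathway, 14 were tested. Of these 5 rose and 6 fell, against 33.1% and 33.2% of all rows tested, and the median log2 change was -0.08. HK2, the hexokinase that traps glucose, fell from 7905 ± 990 to 4551 ± 843 normalized counts. TPI1, which interconverts the triose phosphates, fell from 60158 ± 4886 to 44765 ± 3495, and the aldolase ALDOC had a log2 change of -0.70 (SE 0.16), or -0.46 without BEZ235 replicate 3. PFKM, a phosphofructokinase, rose from 45948 ± 1228 to 66341 ± 2591, a log2 change of 0.53, with an SE of 0.053 and a limma adjusted p of 5.23e-06. PFKFB4, whose product sets the activity of phosphofructokinase, rose from 564 ± 48.4 to 1361 ± 488, with BEZ235 replicate 3 well below the other two. PFKL had a log2 change of 0.25 (limma adjusted p = 0.00539), which was 0.15 with an adjusted p of 0.0697 under total-count scaling. HK2, TPI1, ALDOC, PFKM and PFKL overlap other tested rows.

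**Figure D5:**
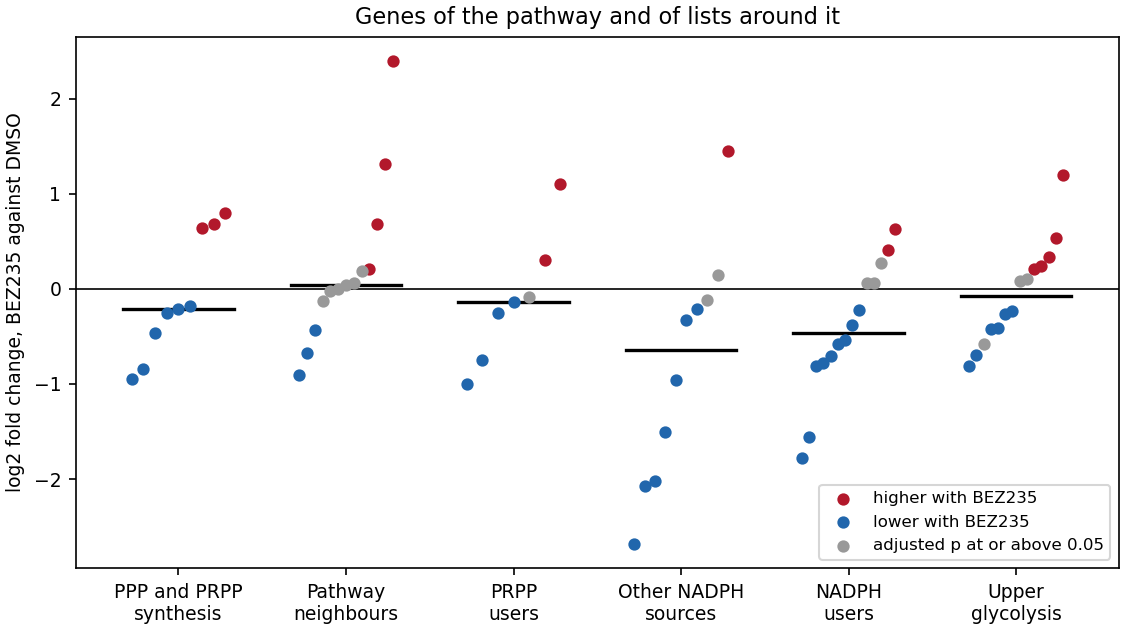
Log2 fold change, BEZ235 against DMSO (vertical axis), of every tested gene of the 9 and of the 5 lists around them; red and blue points passed the threshold, grey points did not, and horizontal lines are list medians. The list of other NADPH sources has the lowest median, -0.65, and the 9 pathway genes include no grey point.

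Reads recovered from the normalized counts summed to 184790722 to 233767211 per library over all rows, some of which overlap. Each of the 9 genes had at least 3427 reads in every library. Mitochondrial rows accounted for 0.507 to 0.706% of normalized counts in BEZ235 and 2.82 to 3.55% in DMSO, and ribosomal RNA rows 5.67 to 7.40% and 7.10 to 10.8%. These shares move with the groups, and their part in the changes of the 9 genes was not tested. All 8 Ewing sarcoma markers were detected, with a summed normalized count of 353074 to 374575 in DMSO and 285145 to 291950 in BEZ235. Of these markers 4 rose and 3 fell, against 33.1% and 33.2% of all rows tested, with CD99 carrying most of the sum. Among those that rose were NKX2-2 (from 3154 ± 126 to 7561 ± 127 normalized counts) and PAPPA (by 2.58-fold). NR0B1 fell from 54196 ± 5215 to 25064 ± 427, CD99 by 1.26-fold and CCK, at low counts, by 3.07-fold. The 6 blood markers summed to 2204 to 3281 in DMSO and 1457 to 1545 in BEZ235, nearly all of it CD68, with CD3E and HBB at 0. The 4 endothelial markers summed to 2.06 to 21.6 and 8.11 to 13.8. The 5 epithelial markers summed to 1698 to 1743 and 1099 to 1325, with KRT19 at 0, and the 5 fibroblast markers to 11535 to 12699 and 11431 to 12533. Within the similar fibroblast sums PDGFRB rose by 2.70-fold and DCN by 1.19-fold, while LUM fell by 6.29-fold and COL1A1 by 1.66-fold. All libraries are labelled TC-71, so these sums are levels of marker transcripts and not counts of other cell types. In bulk RNA, fewer TC-71 cells with a transcript and less of it per cell cannot be told apart.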

How the data were processed

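RNA sequencing of TC-71 cells was analysed from 1 deposited table of normalized gene read counts (unit: signal) in which each library has a column. Per the submitters' processing notes, STAR 2.4.0, SAMtools, Picard, FastQC, DESeq and build hg38 were used, without stated roles. Rows are genes of FASTDB, per the file headers. No source used here gives the counting rule or the use of strand, so overlapping genes and near-identical copies may share reads. Control columns were matched to DMSO samples by number.

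Each column held whole multiples of 1 step (0.835 to 1.16 normalized counts per read). Division by this step returned whole reads for 100% of values (tolerance 0.01). The filter kept 23923 rows with 10 or more normalized counts in 3 or more of the 6 libraries. They were tested with limma 3.58.1 (R 4.3.3) with a mean-variance trend on log2(normalized count + 1), two-sided, Benjamini-Hochberg adjustment over all rows tested and a threshold of 0.05. Changes are given on that scale, so those of low genes depend on the added count. For ME3 the log2 change was 1.45, and 0.97 with a pseudocount of 10. P-values set the difference between groups against the spread between these libraries of 1 cell line and do not cover other lines.

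Alternatives were TMM, quantile and total-count scaling, pseudocounts of 0.5 and 10, no filter or one at 50, a fit without trend, a block for the replicate number, edgeR 4.0.16 (quasi-likelihood) and DESeq2 1.42.0 on recovered reads, which called 15744 and 15706 rows against 15863, and leaving out each library. Libraries were not duplicates: the mean chi-square per gene between libraries of a group was 17.1 or more, beyond sampling noise. The scripts were tested on simulated data.

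Members, lists and motifs were chosen with earlier results of these data known. Named beside the 9 genes are up to 3 genes per list and direction with the smallest adjusted p, and paralogs and partners of members. Not every gene of the pathway or of the lists is reported here.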

Additional observations from a re-analysis of the deposited data

How the results depend on the processing

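All 9 genes kept their direction and passed the threshold under each of the 17 alternatives. The weakest were RPE (log2 change from -0.28 to -0.11, adjusted p up to 0.0409), PRPS2 (-0.36 to -0.19, up to 0.0253) and TALDO1 (-0.30 to -0.17, up to 0.0187). The 3 rises and 6 falls were the same when any library was left out. Same-numbered libraries did not deviate together over all rows tested (r = -0.038, 0.023 and 0.043). With so few libraries this cannot show whether the numbers pair samples. With the replicate number as a block 3 of the 9 rose and 6 fell, as without it. The block lowered the limma adjusted p of PGLS from 1.32e-05 to 7.96e-07 and raised that of RPE from 0.00927 to 0.0146.

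Counts in the lists around them moved more. NADPH users had 3 higher genes, against 2, with TMM scaling, quantile normalization, a pseudocount of 10, a filter at 50, DESeq2 and the block. In upper glycolysis 4 genes were lower without the trend, against 6, and 4 to 6 with a library left out. Of the pathway neighbours 3 rose and 4 fell with total-count scaling, against 4 and 3. Among PRPP users the count of lower genes was 3, against 4, with TMM scaling, quantile normalization, no filter, no trend and the replicate block. It was 5 with total-count scaling and 3 to 4 with a library left out. The count of higher genes was 1 among PRPP users with total-count scaling and without the trend, against 2, and 3 in upper glycolysis with total-count scaling, against 5. Among other NADPH sources it was 0, against 1, with total-count scaling, a pseudocount of 0.5, no filter, a filter at 50, no trend, edgeR and DESeq2, and 0 to 1 with a library left out.

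Genes that did not pass the test changed sign in places. TKTL1 (0.19) was -0.32 with edgeR, -0.37 with DESeq2 and -0.72 to 1.63 with a library left out. NADK2 (-0.007) was 0.060 with quantile normalization, 0.0024 with edgeR and -0.040 to 0.054 with a library left out. RPEL1 (-0.026) was 0.032 with quantile normalization and -0.15 to 0.072 with a library left out. PRPSAP2 (0.040) was -0.056 with total-count scaling and -0.029 to 0.11 with a library left out. The cause was not tested. Depth does not limit the 9 genes, but TKTL1, TKTL2 and PRPS1L1 had 6 to 46 reads per group of 3 libraries, so a change in them was hardly detectable.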
